A study of Rattus norvegicus with 56 samples.

Results

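The 8 genes described here, Hmgcs1, Mvd, Idi1, Fdps, Fdft1, Sqle, Cyp51 and Insig1, belong to cholesterol synthesis and its feedback control, and they were followed in rat hippocampal neuron cultures that had received repetitive transcranial magnetic stimulation (rTMS). They are 8 of the 16481 genes that could be named on the array. Each gene was read from its brightest probe, after the RefSeq accession that the scanner files give for the probe had been matched to a current gene symbol. Primary cultures had been prepared from hippocampi of E18 Sprague-Dawley rats and placed on an inverted coil in an incubator. They received 1 Hz stimulation (an even train of single pulses), intermittent theta burst stimulation (iTBS, short bursts of pulses) or sham treatment. The stimulator was set to 15% of its maximum output, and for sham the coil stood about 20 cm away. RNA was collected 0, 2, 8, 24 or 48 h after stimulation had ended, and untreated control cultures (CTR) were collected at 0 h only. One Agilent array was hybridized per sample, 56 in all, in 16 groups of 3 or 4. The array of replicate 2 of the 1 Hz group at 2 h had a failed spot grid in its own scanner header and was left out, so that 55 arrays remained and that group kept 2.

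The running numbers in the sample descriptions pass through the whole time course and start over, which gives 4 series: A (numbers 1 to 18), B (19 to 36), C (37 to 54) and D (numbers with the prefix D). Series A held 1 array at 8 h and 1 at 24 h, both 1 Hz, and the untreated controls were in A and C. The labels do not say that the series were separate cultures, and where nothing says so the p-values measure only the spread between these samples. A level below is the log2 processed signal of a probe after each array had been centred on its mean and brought to 1 common spread, so that 0 is the mean of all probes of the array. Levels of different probes are not comparable with each other, and every fitted comparison was made within a probe. Sums of signal over the probes of a marker list are given as a description only. The fits were made with limma over 35694 probes, and adjusted p stands for the Benjamini-Hochberg value over all of them, with 0.05 as the threshold.

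Cells make cholesterol from acetyl-CoA through the mevalonate pathway. Hmgcs1 condenses acetyl-CoA units early in it, Mvd and Idi1 turn mevalonate into the activated isoprene units, Fdps joins these to farnesyl diphosphate, Fdft1 makes squalene from farnesyl diphosphate, Sqle oxidizes squalene, and Cyp51 demethylates lanosterol on the way to cholesterol. Insig1 encodes a membrane protein of the endoplasmic reticulum that retains the SREBP transcription factors when sterols are plentiful, and it is itself an SREBP target, like the enzymes. The brain makes its own cholesterol because lipoproteins of the blood do not cross the blood-brain barrier, and in it glia supply neurons as well.

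Promoter windows from RefSeq (build GRCr8) were found for 6 of the 8 genes, and for Fdft1 and Sqle none was. In the 250 bases before the annotated start, 5 of the 6 windows held the letters CCAAT on one strand or the other (CCAAT boxes are bound by NF-Y, a partner of SREBP), against 34.3% of the 27457 windows of that length. At least 2 matches were found in 3 of the 6, against 9.77% of all windows. The 3 windows with 2 matches are shown here, and whether these letters have a part in the levels of the genes was not tested. They are written 5′ to 3′ on the strand of the gene, with the matches in capitals (ATTGG is CCAAT on the opposite strand).
Hmgcs1, chr2:53382054-53382303, plus strand: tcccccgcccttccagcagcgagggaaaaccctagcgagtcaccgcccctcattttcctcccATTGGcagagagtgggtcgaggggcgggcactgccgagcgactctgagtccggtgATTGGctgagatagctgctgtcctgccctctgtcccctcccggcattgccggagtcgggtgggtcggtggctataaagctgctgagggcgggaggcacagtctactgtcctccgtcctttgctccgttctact
Idi1, chr17:66547525-66547774, minus strand: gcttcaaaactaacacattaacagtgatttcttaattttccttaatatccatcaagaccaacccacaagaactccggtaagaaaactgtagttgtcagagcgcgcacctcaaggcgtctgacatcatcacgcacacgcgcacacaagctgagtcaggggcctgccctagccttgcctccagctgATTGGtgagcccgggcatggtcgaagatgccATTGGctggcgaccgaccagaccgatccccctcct
Fdps, chr2:176804817-176805066, minus strand: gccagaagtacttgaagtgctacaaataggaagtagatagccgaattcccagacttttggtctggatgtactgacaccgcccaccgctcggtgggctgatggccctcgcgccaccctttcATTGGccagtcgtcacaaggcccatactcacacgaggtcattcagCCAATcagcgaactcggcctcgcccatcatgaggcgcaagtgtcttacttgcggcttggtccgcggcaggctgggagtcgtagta

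Further motifs were searched on both strands of the same windows. The letters CACNCCA, the core of the classical sterol regulatory element, were found in 1 of the 6 windows, that of Insig1, against 14.4% of all windows. The Sp1 core GGGCGG was found in 5 of the 6, against 32.4%. These matches describe the letters of the windows, and binding to them was not tested. Other forms of the sterol regulatory element were not searched.

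All 8 probes were well above background on all 55 arrays. Across arrays the level of Mvd spanned 3.34 on the log2 scale, from 5.62 to 8.96, the widest span of the 8 genes, and that of Fdft1 spanned 2.08, from 5.76 to 7.84, the narrowest. The 8 genes moved together: over the 28 pairs of genes Pearson's r across the 55 arrays was between 0.60 and 0.96, with a median of 0.86. After the mean of each series had been removed, r was between 0.43 and 0.91, with a median of 0.76. All pairs share the arrays, their scaling and their series, so r is given as a description only.

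**Figure D1:**
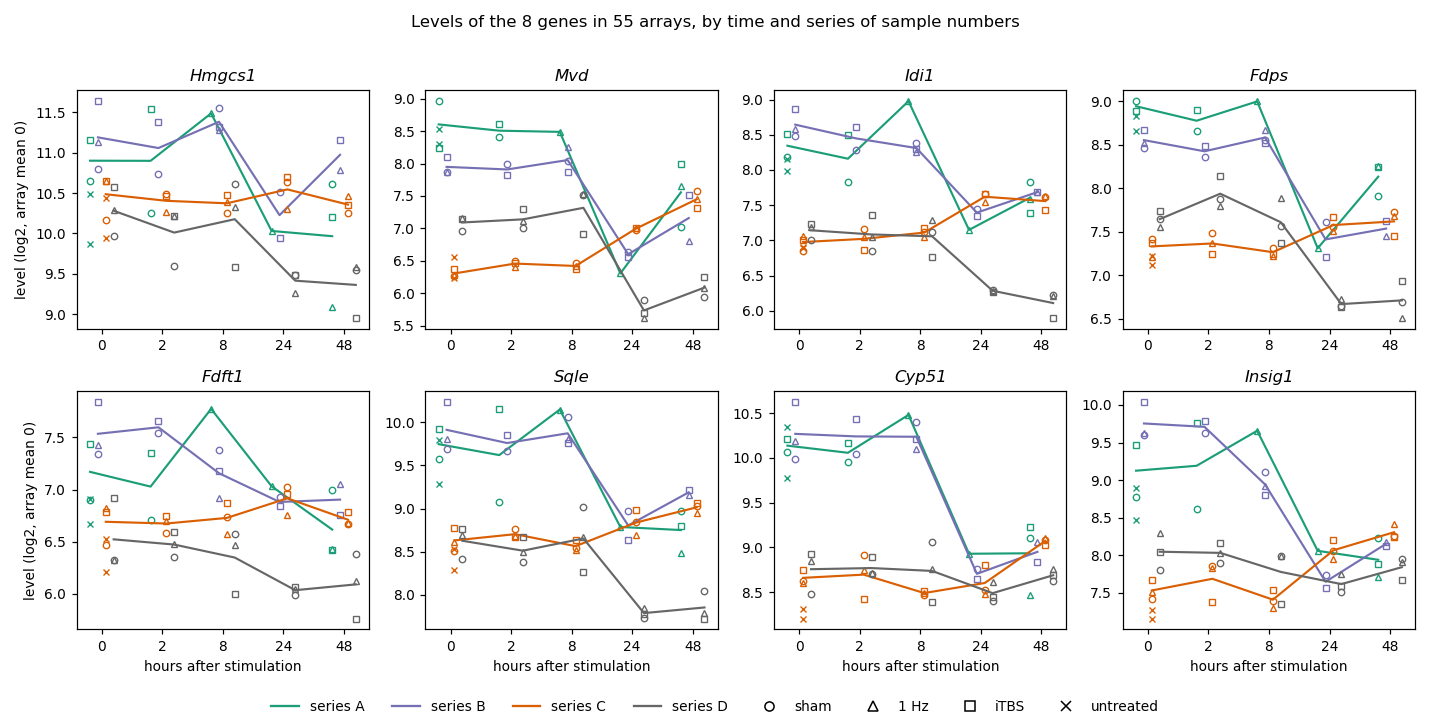
Level (log2, array mean 0) of each gene in 55 arrays against hours after stimulation, with the 5 times evenly spaced. Colours are the 4 series of sample numbers, lines join the means of the sham, 1 Hz and iTBS arrays of a series, and symbols give the arm. At 0, 2 and 8 h the arrays of series C and D lay below those of A and B for 6 of the 8 genes, and at 24 and 48 h the fitted differences from these earlier times were negative in A, B and D and positive in C.

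The levels of the 8 genes differed between the series of sample numbers. In the sham, 1 Hz and iTBS arrays at 0, 2 and 8 h Mvd ranged from 8.25 to 8.96 in series A (median 8.49, 5 arrays) and from 7.82 to 8.26 in series B (median 7.93, 8 arrays). In series C it ranged from 6.27 to 6.49 (median 6.41, 9 arrays) and in series D from 6.91 to 7.53 (median 7.14, 9 arrays). No array of C or D reached an array of A or B, and C lay lowest. Insig1 was lower in C and D as well at those times: 8.62 to 9.77 in A (median 9.47), 8.80 to 10.04 in B (median 9.61), 7.30 to 7.86 in C (median 7.51) and 7.35 to 8.30 in D (median 8.00). Cyp51 ranged from 9.95 to 10.48 in A and from 9.99 to 10.63 in B, against 8.42 to 8.92 in C and 8.39 to 9.07 in D.

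The arrays of series C and D were set against those of A and B at 0, 2 and 8 h, a split not planned. Those of C and D were all below for 6 of the 8 genes, which moved together, while 0.6% of all tested probes showed this pattern. The exceptions were Hmgcs1 and Fdft1, whose ranges overlapped. Hmgcs1 ranged from 10.25 to 11.55 in A and from 9.58 to 10.62 in D, and Fdft1 from 6.71 to 7.77 in A and from 6.001 to 6.92 in D. In the fit over all times with series in the model, the F test for series passed for all 8 genes (adjusted p from 1.7e-09 to 8.4e-06), and for 75.4% of all probes. Series D lay below B for all 8 genes, by −0.81 for Fdps (SE 0.15) to −1.39 for Idi1 (SE 0.17), where 24.1% of all probes were lower. Series C lay below B for all 8 as well, by −0.50 for Fdft1 (SE 0.10) to −1.16 for Insig1 (SE 0.22), where 14.8% of all probes were lower. Series A and B were not told apart for any of the 8 (differences of B from A between −0.48 and 0.42, lowest adjusted p = 0.074, 2 genes at an unadjusted p under 0.05), where 30.4% of all probes were called.

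Arrays of 1 series and time came close to each other, so they were also fitted as a random block. The F test for series still passed for all 8 genes (highest adjusted p = 0.00011) and for 58.1% of all probes, and the difference of C from B was no longer called for Hmgcs1 (adjusted p = 0.062). With the slide as an added fixed block the difference of D from B remained called for 6 genes, without Mvd and Fdps, where 12.4% of all probes were lower. That of C from B was then called for Cyp51 and Insig1 alone, where 9.03% of all probes were lower, and that of Mvd turned to 0.12 (adjusted p = 0.86). No slide held series C together with A or B, so that this comparison of C with B runs through the arrays of D. Series D shared slides with the others: at the same time on the same slide, its arrays were lower in means for all 8 genes in 5 of the 6 pairings, and for 7 of 8 against series C at 24 h, with medians over the 8 genes between −0.87 and −1.62.

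The course after stimulation took opposite directions between the series. The comparison of late (24 and 48 h) with early arrays (0, 2 and 8 h) within each series, over the sham, 1 Hz and iTBS arrays, was added after the values had been seen. In series A 7 of the 8 genes fell, in B all 8, and in D 6. In C none fell and 3 rose. Probes called lower made up 8.6% of all tested in A, 23.3% in B and 16.8% in D, and probes called higher in C made up 3.11%. In the other directions, probes called higher made up 12.4% in A, 19.9% in B and 17.5% in D, and probes called lower in C 1.55%.

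**Figure D2:**
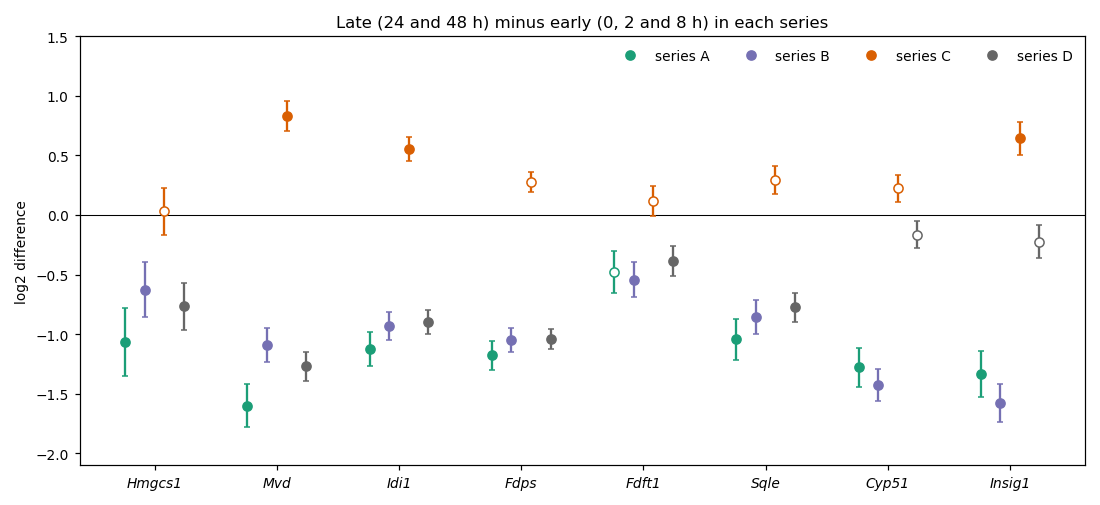
Difference between late (24 and 48 h) and early (0, 2 and 8 h) levels of each gene in each series, on the log2 scale, with bars of 1 SE from limma. Filled circles passed the adjusted threshold of 0.05 and open circles did not. All 24 values of series A, B and D lie below 0 and all 8 values of series C above it.

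Mvd, which decarboxylates mevalonate diphosphate, fell from a median of 8.49 to 7.34 in series A (late range 6.31 to 7.99, 4 arrays), and from 7.93 to 6.72 in B (late range 6.56 to 7.51, 4 arrays). In D it fell from 7.14 to 5.92 (late range 5.62 to 6.25, 6 arrays). In C it rose from 6.41 to 7.16 (late range 6.98 to 7.57, 6 arrays), and in none of the 4 series did its late arrays overlap its early ones. Of all tested probes, 3.91% in A, 13.1% in B and 5.15% in D had all late arrays below the early ones. In C 2.34% had them all above. The fitted differences were −1.60 (SE 0.18) in A, −1.09 (SE 0.15) in B, −1.27 (SE 0.12) in D and 0.83 (SE 0.12) in C, with limma adjusted p of 4.7e-05 in C and lower in the others. The late arrays of C thus reached the level of the late arrays of A.

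Idi1, the isomerase of the isoprene units, followed the same course. It fell by −1.13 in A (SE 0.14), −0.94 in B (SE 0.12) and −0.90 in D (SE 0.10), and rose by 0.55 in C (SE 0.10, adjusted p = 0.00061). Its arrays of series C ranged from 6.85 to 7.17 early and from 7.43 to 7.66 late, without overlap. Those of D ranged from 6.76 to 7.36 early and from 5.90 to 6.30 late, again without overlap. Of all probes, 2.34% lay above in this way in C and 5.15% below in D.

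Insig1 rose in C by 0.64 (SE 0.14, adjusted p = 0.0034), from 7.30 to 7.86 early to 7.95 to 8.42 late, but with the random block that call was lost (adjusted p = 0.097). It fell by −1.34 in A (SE 0.20) and by −1.58 in B (SE 0.16). In D its difference was −0.22 (SE 0.14, adjusted p = 0.22), with overlapping ranges of 7.35 to 8.30 early and 7.51 to 7.95 late. Cyp51 was alike in this: it fell by −1.28 in A (SE 0.16) and by −1.43 in B (SE 0.13), while in D its difference was −0.17 (SE 0.11, adjusted p = 0.27) and in C 0.22 (SE 0.11, adjusted p = 0.36). For both genes the 4 series lay close together late: the highest and lowest series mean differed by 0.34 for Cyp51 and by 0.46 for Insig1, against 1.63 and 1.92 early.

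Fdps, which makes farnesyl diphosphate, fell by much the same amount in the 3 falling series: −1.18 in A (SE 0.12), −1.05 in B (SE 0.10) and −1.04 in D (SE 0.09). Its late arrays lay below its early ones without overlap in each of these, as did those of 3.91%, 13.1% and 5.15% of all probes. In C its difference was 0.28 (SE 0.09, adjusted p = 0.059), which passed when any 1 of 8 arrays was left out. Of these arrays only replicate 3 of iTBS at 48 h was of series C. Without any of the others the difference stayed at 0.28. Sqle fell by −1.04 in A (SE 0.17), −0.86 in B (SE 0.14) and −0.78 in D (SE 0.12), and its difference in C was 0.29 (SE 0.12, adjusted p = 0.21).

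The late and early arrays of Hmgcs1 and Fdft1 overlapped in each of the 4 series. Hmgcs1 fell by −1.07 in A (SE 0.29), −0.63 in B (SE 0.23, adjusted p = 0.030) and −0.77 in D (SE 0.20), and in C its difference was 0.03 (SE 0.20). Its fall in B was lost (adjusted p from 0.058 to 0.20) when any 1 of 5 arrays was left out, namely replicate 1 of iTBS at 0, 2 or 24 h, replicate 2 of 1 Hz at 48 h or replicate 2 of iTBS at 48 h. Fdft1 fell by −0.54 in B (SE 0.15, adjusted p = 0.0033) and by −0.39 in D (SE 0.13, adjusted p = 0.017). Its fall in D was lost without replicate 4 of iTBS at 48 h (adjusted p = 0.092) and with the random block (adjusted p = 0.072). In A its difference was −0.48 (SE 0.18, adjusted p = 0.056), which passed when any 1 of 8 arrays was left out. These arrays were of series A and D.

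The difference in the late change between the series was tested as an F test over the 4 series, and passed for all 8 genes (adjusted p from 6.6e-11 for Mvd to 0.029 for Hmgcs1), where 45.3% of all probes passed. Against the mean of A, B and D, the late change of C was higher by 0.59 for Fdft1 (SE 0.15) to 2.15 for Mvd (SE 0.15), and all 8 genes passed in that direction, with 6.03% of all probes. Series C was set apart in this contrast after the values had been seen, so its calls are no independent test. With the random block the F test was lost for Hmgcs1 (adjusted p = 0.067) and Fdft1 (adjusted p = 0.075), where 29.7% of all probes passed. In that fit 7 genes were higher in C than in the mean of the other 3 series, without Hmgcs1 (adjusted p = 0.052), and 2.6% of all probes were. Hmgcs1 also lost it without replicate 3 of sham at 0 h, replicate 2 of sham at 24 h, replicate 1 of 1 Hz at 8 h or replicate 3 of 1 Hz at 48 h (adjusted p from 0.052 to 0.064).

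With the slide as a further block the F test still passed for 6 genes, and was lost for Hmgcs1 (adjusted p = 0.19) and Fdft1 (adjusted p = 0.24), where 5.41% of all probes passed. In that fit 8 genes were lower late in A and 5 in B, with 8.12% and 5.42% of all probes. None was called in C or D, with 0.0532% and 0.0672% of all probes called in either direction, and the differences of Hmgcs1 (0.29) and Fdft1 (0.14) in D turned positive. Where 1 slide held late and early arrays of a series, the mean late level was lower for all 8 genes in series A (4 late and 2 early arrays, median difference −1.35) and in B (4 and 2, median −0.87). It was higher for all 8 in C (1 late and 5 early arrays, median 0.29). In D only 1 late and 1 early array shared a slide, and 6 of the 8 genes were lower late (median −0.27).

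With the arms and the series pooled, as the time course was laid out, the differing courses were averaged. None of the 8 genes had changed at 2 h (differences from 0 h between −0.13 and 0.02, SE 0.12 to 0.27) or at 8 h (−0.34 to 0.08, SE 0.12 to 0.26) by limma with series in the model, and none at an unadjusted p under 0.05. At 24 h all 8 differences were negative, from −0.26 for Fdft1 to −0.83 for Mvd, and 5 passed: Hmgcs1, Mvd, Fdps, Sqle and Cyp51. At 48 h all were negative again, from −0.37 to −0.57, and 5 passed: Hmgcs1, Idi1, Fdps, Fdft1 and Sqle. Of all probes, 5.39% were lower at 24 h and 13.4% at 48 h. With the random block 4 genes remained called at 24 h, without Hmgcs1 (adjusted p = 0.11), and Fdps alone at 48 h (adjusted p = 0.022), with 2.01% and 5.28% of all probes lower.

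The F test over times passed for 5 of the 8 genes (Hmgcs1, Mvd, Fdps, Sqle and Cyp51), where 27% of all probes passed. With the random block 4 of the 8 passed, and Hmgcs1 did not (adjusted p = 0.077), where 13.1% of all probes passed. When series C was left out, a fit added after the values had been seen, all 8 passed, and without series D none did. Series C was the one whose late changes ran the other way. Shares of all probes are not given for these fits, so their counts are no result about the 8 genes in particular. The count fell to 3 without replicate 1 of sham at 8 or 24 h, replicate 3 of sham at 8 or 48 h, replicate 3 of 1 Hz at 0 or 2 h, replicate 1 of 1 Hz at 24 h, or replicate 1 of iTBS at 8 or 24 h. The step from 8 to 24 h passed for Hmgcs1, Mvd, Fdps and Sqle (−0.59 to −0.91), with 2.59% of all probes lower, while no gene passed between 24 and 48 h. With the random block the step from 8 to 24 h was lost for Hmgcs1 (adjusted p = 0.12) and held for the other 3, with 0.692% of all probes lower.

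The time course did not differ between the arms for any of the 8 genes in an F test of the interaction (adjusted p of 1 for each, none at an unadjusted p under 0.05), nor did it for any probe. In the 17 sham arrays alone the F test over times passed for 0 of the 8 genes, and the share of all probes is not given for that fit. With so few arrays this does not show that the sham cultures had no time course.

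The stimulation protocols were compared with sham at each time. Over 80 comparisons of 8 genes, 2 protocols and 5 times, none passed, and none had an unadjusted p under 0.05 (lowest adjusted p = 0.9998, limma over all probes). Between 0 and 2 of the 35694 probes were called in each of these comparisons, 0%, 0.0028% or 0.0056% of them. Differences of the group means ranged from −0.71 to 0.63 with SEs of 0.34 to 0.73, so the spread between the series covered them, and in no comparison were the groups free of overlap. The criteria stated in the study's methods, rebuilt from z-scores, called none of the 80 either, and between 0 and 7 of 45178 probes in each comparison. The paper reports many more changed genes for each of these comparisons, so the rebuilt criteria did not reproduce its calls.

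**Figure D3:**
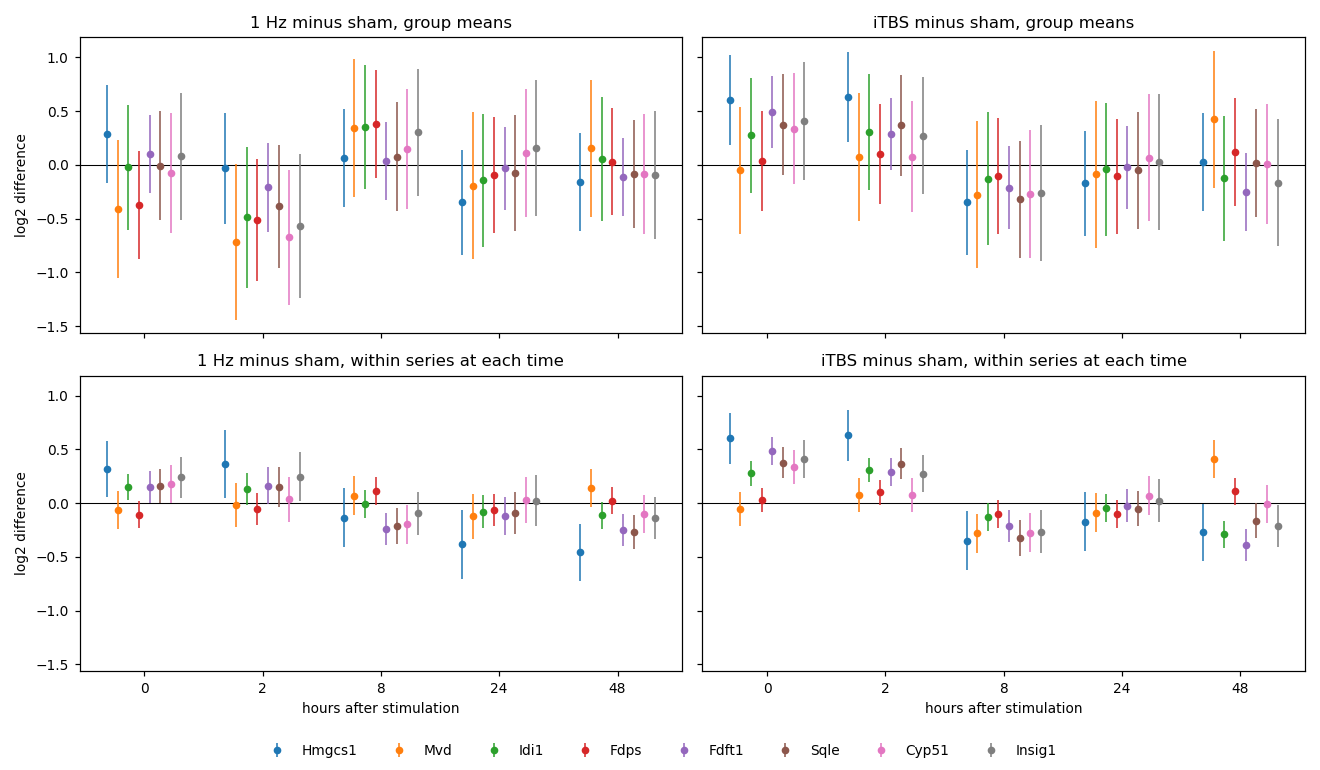
Difference of 1 Hz (left) and iTBS (right) from sham for each gene and time, on the log2 scale, with bars of 1 SE. The upper panels are from group means and the lower panels from the fit within series at each time. The lower bars are shorter, and at 0 h after iTBS 7 of the 8 values lie above 0, but none of the 80 values in either fit passed the adjusted threshold.

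With series at each time as a block, the SEs fell to between 0.11 and 0.32, and still none of the 80 passed (lowest adjusted p = 0.086), while 13 had an unadjusted p under 0.05. Of these 13, 6 lay at 0 h after iTBS. The 8 genes moved together and were set against the same sham arrays. Shares of all probes at an unadjusted p under 0.05, or higher in each series, are not given for this fit. Such counts, here and below, are therefore no result about the 8 genes in particular. For 4 stimulated arrays (1 Hz at 8 and 24 h in A, 1 Hz and iTBS at 48 h in B) there was no sham array of the same series and time. At 0 h Hmgcs1 was 11.15, 11.64, 10.64 and 10.57 after iTBS in series A, B, C and D, against 10.65, 10.80, 10.17 and 9.97 after sham, higher in 4 of 4 series. The mean difference was 0.60 (SE 0.24, adjusted p = 0.21). Fdft1 was higher in 4 of 4 series too, by 0.31 to 0.60 (mean 0.49, SE 0.13, adjusted p = 0.086). Idi1, Sqle, Cyp51 and Insig1 were higher in 4 of 4, with means of 0.28 to 0.41, whereas Fdps was higher in 2 of 4 (0.03) and Mvd in 3 of 4 (−0.05). After 1 Hz at 0 h, set against the same sham arrays, Hmgcs1, Mvd, Idi1, Sqle and Insig1 were higher in 3 of 3 series, Hmgcs1 by a mean of 0.37, with none at an unadjusted p under 0.05.

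At 2 h after iTBS 4 genes had an unadjusted p under 0.05 in that fit, Hmgcs1 among them (0.63, SE 0.24, adjusted p = 0.38, higher in 3 of 4 series). At 48 h the 3 such genes did not share a direction: Mvd was higher by 0.41, and Idi1 and Fdft1 lower. After 1 Hz no gene reached an unadjusted p under 0.05 at any time in that fit. Of all probes, 0.0308% were called at 0 h after iTBS and none at 2 h.

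Averaged over the 5 times, 1 Hz differed from sham by −0.17 to −0.02 (SE 0.17 to 0.30) and iTBS by 0.01 to 0.15 (SE 0.16 to 0.29), and within series and time by −0.06 to 0.06 (SE 0.06 to 0.13) and 0.01 to 0.09 (SE 0.05 to 0.12). None of the 16 averages passed. iTBS and 1 Hz were not told apart in any of 40 comparisons, where 0%, 0.0028% or 0.0056% of all probes were called, and untreated controls were not told apart from sham at 0 h (−0.45 to −0.07, SE 0.34 to 0.59, limma adjusted p of 1 for each). For the controls 0.0028% of all probes were called. Within series and time their differences from sham were −0.18 to −0.02 (SE 0.12 to 0.26, lowest limma adjusted p = 0.86), and 0.177% of all probes were called. Hmgcs1 in the untreated controls was 10.19 ± 0.32 (SD, n = 4), against 10.40 ± 0.39 (SD, n = 4) in sham.

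Of 12 further synthesis enzymes, all tested, 10 fell late in series A, 8 in B and 9 in D, where 1 rose, while in C 7 rose and none fell. Their median differences were −1.10 in A, −0.87 in B, −0.77 in D and 0.38 in C, beside −1.15, −0.99, −0.77 and 0.29 for the 8 genes and medians between −0.04 and −0.01 over all probes. Of all probes, 8.6%, 23.3% and 16.8% were called lower late in A, B and D, and 3.11% higher in C. Hsd17b7, a sterol reductase, had the largest fall from 0 to 8 h of the list (−0.22, SE 0.21, not called) and changed late by −1.44, −1.19, −1.24 and 0.39 in A, B, D and C, all called. Ebp, the sterol isomerase, had the largest rise to 8 h (0.12, SE 0.12, not called). It differed late by −0.08, 0.09 and −0.14 in A, B and D, none called, and rose in C by 0.41 (adjusted p = 0.00099).

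Of 6 genes of the SREBP machinery, 2 rose and 1 fell late in A, none rose and 1 fell in B, 2 rose and 1 fell in D, and none was called in C. Of all probes, 12.4%, 19.9%, 3.11% and 17.5% were called higher late in A, B, C and D. Those called lower made up 8.6%, 23.3%, 1.55% and 16.8%. Counts near these shares are no result about the genes listed. Srebf1, which encodes an SREBP transcription factor, had the lowest difference at 8 h (−0.52, SE 0.16, adjusted p = 0.076) and rose late in D by 0.57. Scap, the escort protein of the SREBPs, had the highest (0.06, SE 0.11) and was not called in any series. Among 6 genes of sterol uptake and transport, with a seventh, Lrp8, matched to no probe, Stard4, a sterol carrier, stood with the enzymes. Its late differences were −1.53, −1.11 and −1.13 in A, B and D and 1.08 in C, all called. In D 2 further genes of this list rose. Lrp1, a lipoprotein receptor with the highest difference at 8 h of this list (0.22, SE 0.15), was not called in any series.

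Of 9 tested genes of sterol efflux and oxysterol response, of 10 listed, 2 rose late in A, 3 rose and 2 fell in B, 1 rose and 1 fell in C, and 4 rose in D. Abca1, a cholesterol exporter, had the lowest difference at 8 h (−0.57, SE 0.20, adjusted p = 0.13). It fell late in B by −0.43 (adjusted p = 0.019), rose in D by 0.97 and was not called in A or C. Abcg4, another sterol exporter, rose at 8 h (0.34, SE 0.09, adjusted p = 0.028), where 2.37% of all probes changed. Of 10 genes of fatty acid synthesis, 5 fell late in A and 7 in B, while in C 2 rose and 1 fell and in D 2 rose and 1 fell. Acaca, the acetyl-CoA carboxylase, fell in B by −2.02 and was not called in the other 3 series, and Acss2, an acetyl-CoA synthetase, fell in A (−0.67) and B (−0.99) and was not called in C or D. No gene of these lists passed a comparison of 1 Hz or iTBS with sham. The late shares of all probes given beside the SREBP machinery hold for sterol efflux and fatty acid synthesis too. Late counts near them are no result about these genes.

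**Figure D4:**
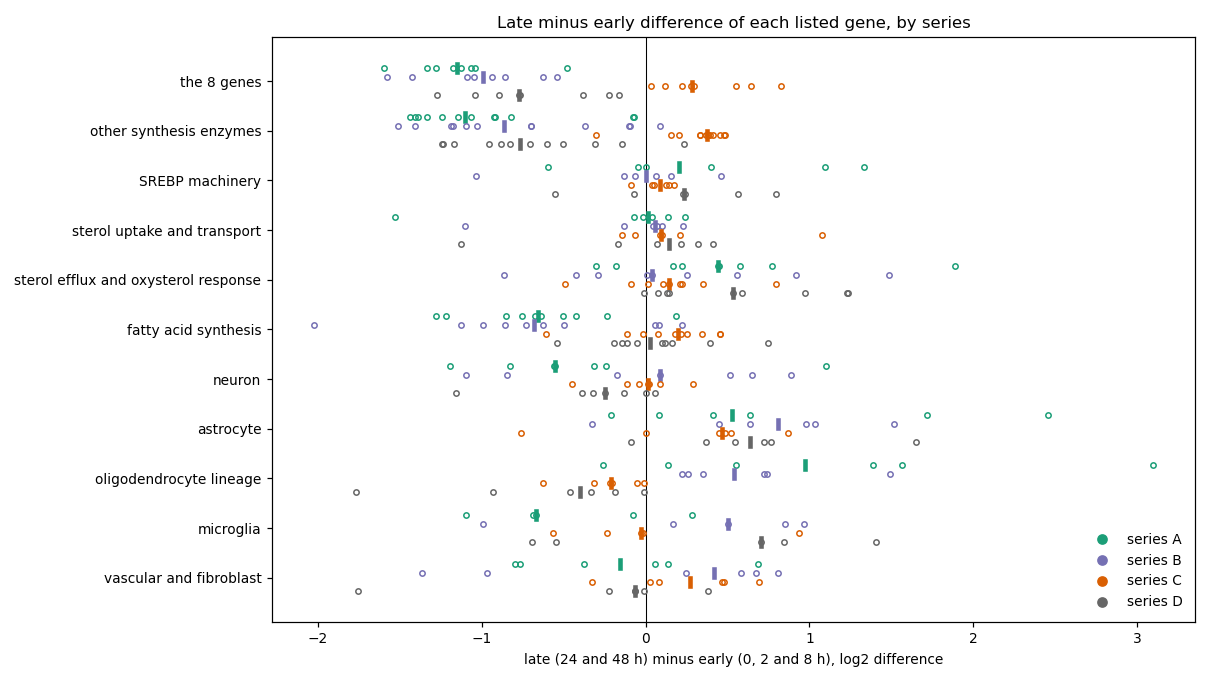
Late minus early difference of each listed gene (circles) and list median (bars) in series A to D, on the log2 scale. The 8 genes and the other synthesis enzymes lie mostly below 0 in A, B and D and mostly above 0 in C, whereas the cell type markers and the genes of sterol efflux do not share this arrangement.

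Likeness to the 8 genes was measured as Pearson's r with the mean of their z-scores over the 55 arrays, series means removed, among 13880 other named genes. Of the 10 genes with the highest r, 9 are given here. Acly, which makes cytosolic acetyl-CoA from citrate, led (r = 0.93), followed by Aacs, an acetoacetyl-CoA synthetase (0.92). The sterol enzymes Msmo1 (0.90), Hsd17b7 (0.90) and Lss (0.88) and the acetoacetyl-CoA thiolase Acat2 (0.85) were among them, and so were Stard4 (0.84), Pip4p1 (0.88) and Pdp2 (0.85). Of the 10, 6 stood in the lists above, which were drawn up with earlier results of these data known. Srebf2 came at rank 162 (0.66) and Srebf1 at rank 7372 (−0.08).

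Markers showed which cells the cultures held. The neuronal markers Tubb3 and Map2, the astrocyte markers Gfap, Aqp4 and Slc1a3 and the oligodendrocyte lineage markers Olig2, Pdgfra and Mbp were well above background on all 55 arrays. Of the microglial markers Csf1r was so on 7 arrays and Aif1 on 32, and Cx3cr1, Itgam and C1qb were so on all 55. Of the vascular and fibroblast markers Cldn5 was so on 6, Pecam1 on 53 and Col3a1 on 54, and Col1a1, Dcn and Pdgfrb were so on all 55. In bulk cultures a smaller number of cells of a type and less RNA per cell cannot be told apart.

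Glial markers moved with time and with the series. Of all probes, 12.4%, 19.9%, 3.11% and 17.5% were called higher late in A, B, C and D, and 16.8% lower in D. Of 6 astrocyte genes, 4 rose late in A, B and D, and in C 3 rose and 1 fell. Their summed processed signal, in multiples of each array's 75th percentile, ranged from 101 to 135 early and 139 to 214 late in A, from 124 to 166 and 168 to 292 in B, from 135 to 167 and 167 to 196 in C, and from 93.1 to 134 and 147 to 207 in D. In this and the other sums the brightest probes of a list weigh most. Of 6 oligodendrocyte lineage genes, 3 rose late in A and in B, 3 fell in D and none was called in C. Their early sums ranged from 141 to 163 in C and from 10.02 to 23.1 in D, against 36.1 to 52.5 in A and 71.0 to 86.8 in B. Late they were 77.3 to 194 in C, 6.64 to 9.92 in D, 55.01 to 80.8 in A and 103 to 120 in B.

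Neuronal sums ranged from 69.3 to 143 early and 48.3 to 65.5 late in A, from 48.7 to 69.3 and 54.5 to 85.7 in B, from 63.1 to 80.1 and 56.6 to 63.1 in C, and from 72.5 to 110 and 56.0 to 67.4 in D. Microglial sums were between 0.844 and 9.39, and vascular and fibroblast sums were 21.5 to 33.4 in D at all times and between 2.62 and 8.41 in the other series. The part of these cell types in the courses of the 8 genes was not tested. On these arrays the 75th percentile of the processed signal itself ranged from 369 to 3348 scanner units, and 57.6% to 76.9% of probes were well above background.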

How the data were processed

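The authors hybridized 1 one-colour Agilent rat array per sample and deposited the scanner output and a table of z-scores (a score per probe, log-transformed and centred within each array). The deposited processed signal intensity, background-subtracted by Agilent Feature Extraction 12.0.3.1 per the file headers, was used here. Its log2 was averaged over the spots of a probe without outlier spots, z-scored within each array and brought back to log2 units with the arrays' median SD (4.06). Of 45178 probes, 35694 were well above background on at least 3 of 55 arrays and were tested with limma 3.58.1 in R 4.3.3, and the array number limits the precision. Protocols were compared through group means without a covariate, and times and series with series in the model. The 8 genes and all lists were chosen with earlier results of these data known. In each list the genes with the lowest and the highest difference at 8 h from 0 h were named. Alternatives were other scalings, normexp (offset 50, on the median signal), the deposited z-scores, no filter, slide, series and replicate blocks, and leaving out each array. 1 gene of the likeness ranking is not reported here.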

Additional observations from a re-analysis of the deposited data

Results flagged for a closer look

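Over 64 groups of 4 arrays tested gene by gene, 2 held an array far from the others, and chance flags about 1 in 20 groups. Both were Idi1 at 48 h, with the array of series D lowest: after 1 Hz replicate 4 lay at 6.21 while the other 3 lay between 7.58 and 7.69 (gap over range 0.928), and after iTBS replicate 4 lay at 5.90 while the others lay between 7.39 and 7.68 (0.838).

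The late change differed between series for all 8 genes in the F test of the difference. The change in series C minus the mean of that in A, B and D was 0.85 for Hmgcs1, 2.15 for Mvd, 1.54 for Idi1, 1.37 for Fdps, 0.59 for Fdft1, 1.19 for Sqle, 1.18 for Cyp51 and 1.69 for Insig1 on the log2 scale. This contrast was chosen after the values had been seen. The labels name no property in which the series differ.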

How the results depend on the processing

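None of the comparisons of 1 Hz or iTBS with sham, of iTBS with 1 Hz or of untreated controls with sham passed under any scaling, filter, block or left-out array that was run. The count of genes passing the F test over times was 5, and became 0 with no series in the model, 0 in sham arrays, 2 in stimulated arrays, 8 without series C and 0 without series D, and 3 to 7 when each array was left out. Shares of all probes are not given for these other fits, so their counts are no result about the 8 genes in particular. The difference of Fdft1 at 48 h from 0 h turned to 0.10 in sham arrays, which are fewer. The count called late in series C was 3, and 5 with scaling by the 75th percentile or with normexp. With the slide as a block the late counts became 5 in B, 0 in C and 0 in D, the late differences in D turned to 0.29 for Hmgcs1 and 0.14 for Fdft1, and the difference of C from B turned to 0.12 for Mvd. The causes were not tested. When each array was left out, late counts ranged from 7 to 8 in A, 7 to 8 in B, 3 to 4 in C and 5 to 6 in D.

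The labels do not tie equal replicate numbers to a shared culture or day. Correlations of the deviations from the group means ran from −0.46 to 0.78 within a number (mean 0.16), against a mean of −0.06 between numbers, and 35 of 55 arrays correlated best with an array of their own number, which is a hint from the data and not from the design. With the replicate number as a block, 4 genes passed the F test over times, 8 that over series, and 0 any comparison of protocols, and Hmgcs1 and Mvd at 24 h from 0 h and Mvd and Insig1 in D from B were no longer called. Shares of all probes are not given for that block. Slide, series and time were only partly crossed, which limits what the slide block can separate.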

Other observations

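Idi1, Cyp51 and Insig1 each had a second, dimmer probe on the array, which followed the brighter one over the 55 arrays with r of 0.94, 0.92 and 0.85. The late differences of the second probes in series A, B, C and D were −0.90, −1.10, 0.58 and −0.79 for Idi1, −1.29, −0.85, 0.16 and −0.53 for Cyp51, and −1.58, −1.63, 0.66 and −0.39 for Insig1. No second probe passed a comparison of a protocol with sham in limma (lowest adjusted p = 0.9998).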
